A study of Mus musculus with 12 samples.

Results

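Interferon-induced genes and the machinery of MHC class I antigen presentation were followed in mouse liver as 1 set of 45 genes. The members were chosen by gene symbol from knowledge of the pathway, and the rule uses no measured value, although earlier results of these data were known when the list was drawn up. All 45 are among the 50499 genes of the deposited count table, and 43 passed the low-count filter that left 11934 genes for testing. The other two, Ifit1 and Ifi27, were listed at 0 in every library. Each of them lies wholly inside another annotated gene, Ifit1bl1 and Ifi27l2a respectively, so a listed 0 says nothing of the level of its RNA.

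Type I interferons are secreted when cells sense viral or misplaced nucleic acids. Type I interferon acts through a receptor and the kinases Jak1 and Tyk2 to bring a complex that holds STAT2 and IRF9 to interferon-stimulated response elements (ISRE), while interferon gamma acts on gamma-activated sites (GAS). The induced genes encode antiviral effectors, the ubiquitin-like protein ISG15, guanylate-binding proteins, and the immunoproteasome, peptide transporter and heavy chains that put peptides on the cell surface for CD8 T cells. In liver, hepatocytes and resident macrophages both respond to interferon, and class I molecules are carried by nearly all cell types.

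Gene expression was measured by RNA sequencing of liver from male C57BL/6 mice (the labels give C57Bl/6NCrl and C57bl/6), in 12 libraries that form 4 groups of 3. From the age of 6 weeks, mice were kept on chow and normal water, or on a Western diet and sugar water, a regimen used to produce metabolic dysfunction-associated steatohepatitis (MASH). After 12 weeks, every mouse, controls included, received adeno-associated virus of serotype 8 (AAV8) by tail vein, and livers were collected a further 12 weeks later. The TBG promoter of the vector is active in hepatocytes, so other liver cells are not its target. The null vector was given to the groups called chow null and Western null here, whose genotype label is WT. The siAATF vector, meant to silence Aatf, was given to the groups called chow siAATF and Western siAATF, whose genotype label is KD. No label says whether replicates were separate mice, and p-values therefore reflect the spread among these samples alone, which may be technical.

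Total counts ran from 1646853 to 13469819 per library, 18S ribosomal RNA took 0.871% to 50.8% of them, and the members together received 4128 to 31981 counts. Levels are given as CPM, counts scaled to 1 common library size after TMM normalization. They are not divided by gene length and so compare libraries, not genes. A floor of 3 counts corresponds to 0.185 to 1.69 CPM, and this floor covers counting error only, whereas the standard errors and 95% intervals of fold changes include the spread among libraries. The labels were checked on Aatf, the targeted gene. Aatf measured 36.8, 26.5 and 31.6 in chow null, 27.6, 21.1 and 29.997 in Western null, 39.2, 24.6 and 40.5 in chow siAATF and 26.98, 27.5 and 28.2 in Western siAATF, in CPM, and the siAATF over null log2 fold change was 0.06 ± 0.25 (SE) on Western diet and 0.11 ± 0.24 on chow. Neither passed the quasi-likelihood test of edgeR, adjusted by the Benjamini-Hochberg method (adjusted p = 0.953 and 1), so no lower Aatf was found where siAATF is the label. The 95% intervals were -0.47 to 0.59 on Western diet and -0.40 to 0.63 on chow, and so do not exclude a small fall. Every result on the vector therefore concerns libraries labelled siAATF. Hepatocyte markers summed to 40669.5 to 92370.4 CPM, so the markers of the labelled tissue were present in all 12 libraries.

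Promoter sequence was available for 35 members as a RefSeq window of 250 bases before to 50 bases after the gene's start, in build GRCm38.p6, whereas the counts use GRCm39. The ISRE core, searched on both strands as GAAANNGAA, was present in 17 of these 35 members (48.6%) and in 9.76% of all 27025 genes with such a window. The GAS motif, TTCNNNGAA, which reads the same on both strands, was present in 11 members (31.4%) and in 9.55% of all genes. Both motifs occurred in 6 members, Bst2, Eif2ak2, Gbp7, Igtp, Irgm2 and Oas1a, and 9 members held more than 1 ISRE core. Since the members were chosen as interferon-induced genes, these shares describe the choice, and a match is not a measured binding site. No window was given for Ifi27, Oas2, Mx1, Mx2, Usp18, Parp9, Parp14, Zbp1, Tap2 or Nlrc5.

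The following 60-base stretches are shown for 3 members called higher on Western diet and for 3 immunity-related GTPases not called higher. ISRE cores and GAS motifs are in capitals, 5′ to 3′ on the gene's strand. They lie at chr4:156200857-156200916 (minus strand) for Isg15, chr5:120907520-120907579 (minus) for Oas1a, chr3:151749905-151749964 (minus) for Ifi44, chr11:58199491-58199550 (plus) for Igtp, chr11:58214882-58214941 (plus) for Irgm2 and chr11:48871415-48871474 (minus) for Irgm1, all in GRCm38.p6.
Isg15: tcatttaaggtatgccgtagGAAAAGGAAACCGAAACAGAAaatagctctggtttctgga
Oas1a: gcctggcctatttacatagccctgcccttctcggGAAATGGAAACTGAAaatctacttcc
Ifi44: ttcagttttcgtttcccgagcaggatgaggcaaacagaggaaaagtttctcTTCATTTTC
Igtp: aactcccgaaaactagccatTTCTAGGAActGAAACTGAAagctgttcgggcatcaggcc
Irgm2: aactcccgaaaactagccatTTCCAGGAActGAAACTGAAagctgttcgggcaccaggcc
Irgm1: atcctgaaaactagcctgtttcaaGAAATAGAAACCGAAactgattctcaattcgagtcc
The Isg15 stretch holds 3 overlapping ISRE cores, at 78, 72 and 66 bases before the start. Oas1a and Irgm1 hold 2 each, at 20 and 14 bases and at 30 and 24 bases before it. In Ifi44 the core is read on the other strand and begins 3 bases before the start. Igtp and Irgm2 are neighbours on chromosome 11, and their stretches are identical at 58 of 60 bases, with both motifs at the same places within the stretch. Measured from the start, the ISRE core and GAS motif begin 34 and 45 bases before it in Igtp and 64 and 75 in Irgm2. Of the members that rose on Western diet, Psmb9, Lgals3bp and Oasl2 hold neither motif in this window. The windows of Psmb9 and its divergent neighbour Tap1 share 275 bases, with starts 226 bases apart.

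On Western diet with the null vector, 5 of the 43 members tested were higher than on chow and 1 was lower. Isg15, Oas1a, Oasl2, Lgals3bp and Psmb9 rose, and Mx2 fell. In whole tissue, fewer cells of a type and less RNA per cell cannot be told apart. The comparison called 6.44% of all genes higher, 6.77% lower and 13.2% in either direction, so the members' 14.0% is close to the background. The median log2 fold change was 0.47 for the members and -0.03 for all genes, and 34 members had a positive and 9 a negative value. Of the 43 members, 17 had every Western null library above every chow null library and 4 below, against 17.7% and 17% of all genes. At an unadjusted p under 0.05, 14 of 43 members were higher and 3 of 43 lower, against 13.6% and 14.8% of all genes. By both measures the share of members was above that of all genes upward and below it downward.

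With the siAATF vector on both diets, 3 members were higher on Western diet, Ifi44, Psmb9 and Ifi35, and none was lower by edgeR's test. Of all genes, 0.763% were called higher and 0.721% lower, against 6.98% and 0 of the members. The members' median log2 fold change was 0.51, against 0.04 for all genes, with 38 positive and 5 negative values. At an unadjusted p under 0.05, 13 of 43 members were higher, against 9.1% of all genes. Without overlap, 15 of 43 separated upward, against 9.24%. The comparisons under siAATF and under null set separate libraries against each other. Their p-values come from 1 fit of all 12 libraries with a shared estimate of spread, and so are not independent. In both, 31 of 43 members (72.1%) had a higher estimate on Western diet, as did 34.9% of all genes, while Trim25 and Irgm2 were lower in both. Gbp2, Ifi44, Isg15, Oas1a, Ifi35, Lgals3bp and Psmb9 were higher at an unadjusted p under 0.05 in both comparisons, 16.3% of the members against 4.50% of all genes.

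**Figure D1:**
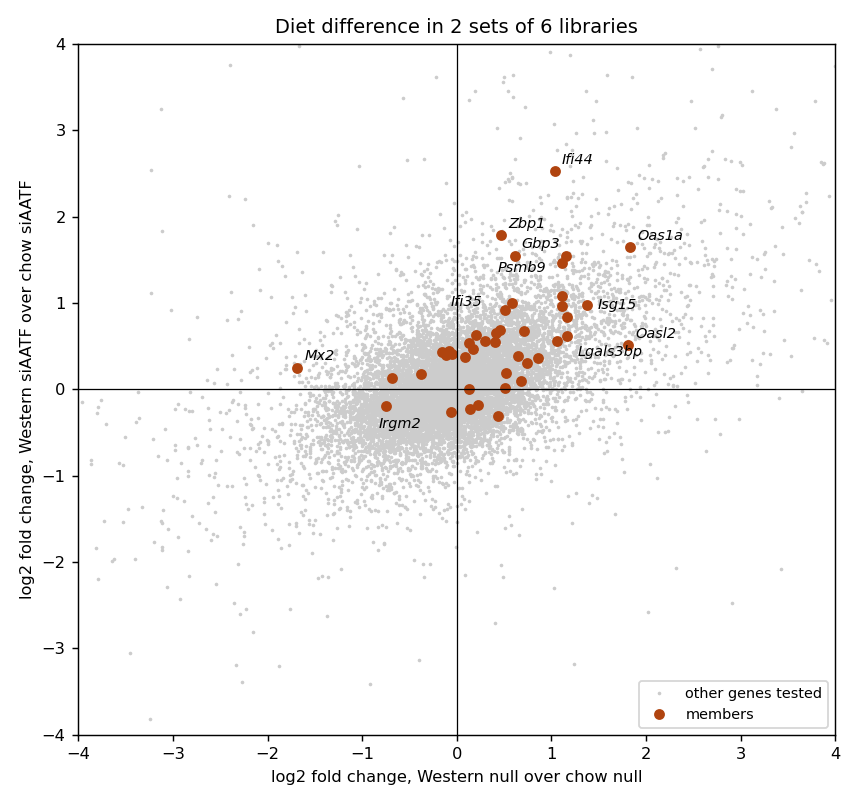
Log2 fold change of Western diet over chow with the null vector (x axis) and with the siAATF vector (y axis) for the 43 members (large points) and all other genes tested (small points), from 2 sets of 6 libraries. Of the members, 31 lie above 0 on both axes, Mx2 is the member farthest to the left, and 120 genes beyond 4 on either axis are not drawn.

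When the diet difference was averaged over both vectors, 6 libraries against 6, 14 members were higher and none was lower by edgeR's test. This contrast was added after the data had been seen. It called 9.61% of all genes higher and 8.59% lower, against 32.6% and 0 of the members. All 6 Western libraries exceeded all 6 chow libraries in 5 of 43 members, Ifi35, Oas1a, Oas2, Zbp1 and Psmb9, against 2.82% of all genes. The calls by role were 5 of 14 RNA sensing and antiviral genes, 2 of 6 genes of ubiquitin-like modification and ADP-ribosylation, 2 of 6 GTPases, 3 of 4 other induced genes and 2 of 3 immunoproteasome subunits. None was called among the 5 transcription factors and co-activators, the 3 genes of peptide transport and loading, or the 2 heavy chains.

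**Figure D2:**
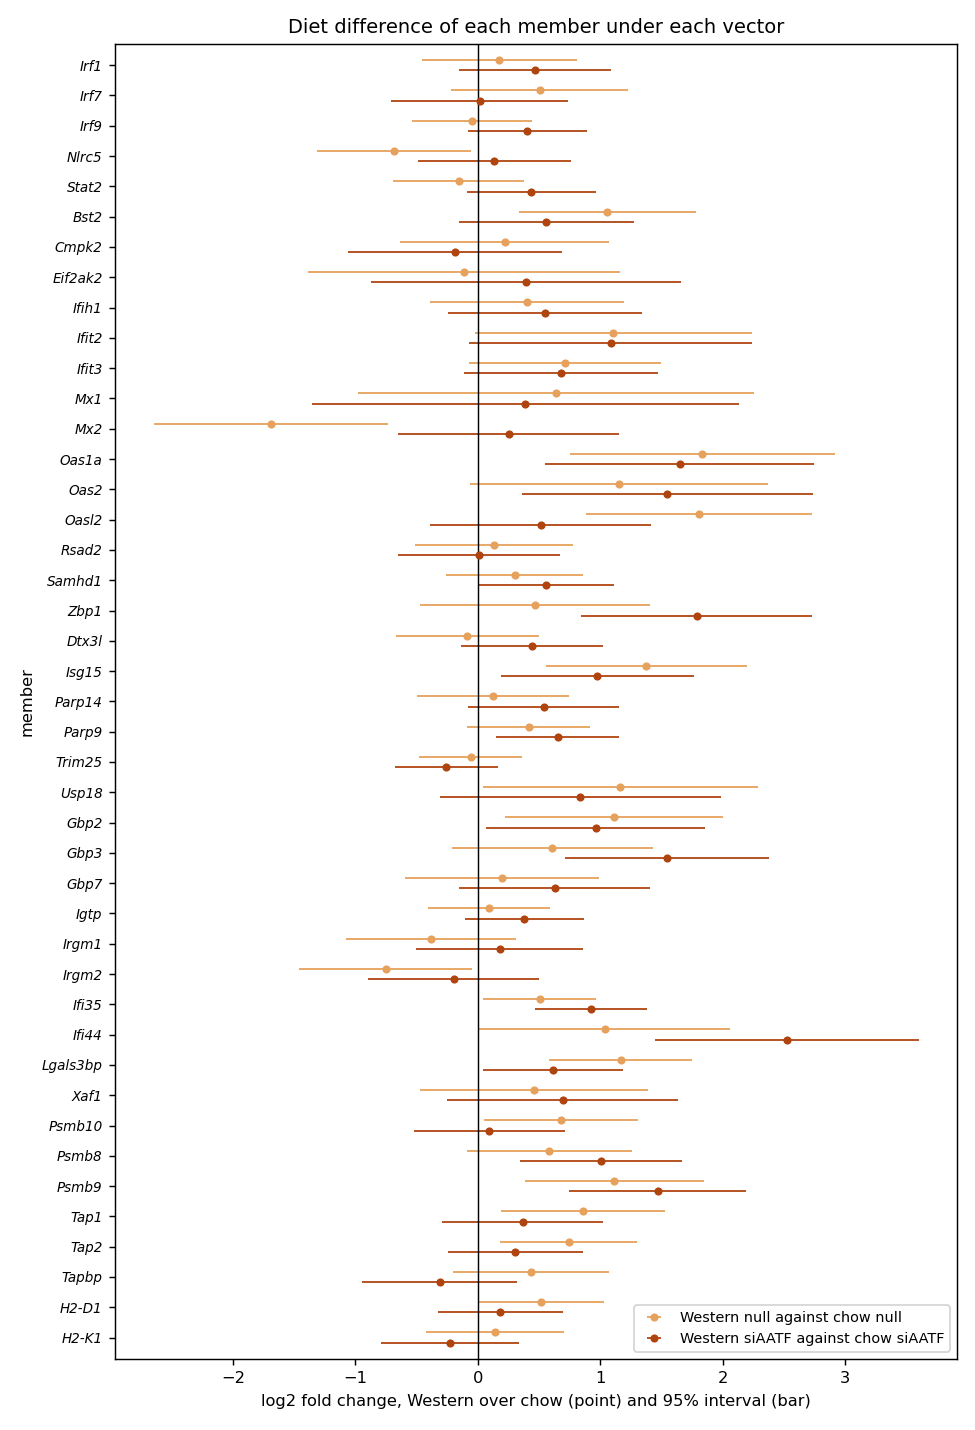
Log2 fold change of Western diet over chow (points) and 95% intervals (bars) for each of the 43 members, with the null vector (light) and with the siAATF vector (dark), in order of role. Most points lie to the right of 0, Mx2 is the member farthest to its left with the null vector, and Ifi44 the farthest to its right with siAATF.

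With the settings used throughout, none of the 5 transcription factors and co-activators was called in any comparison. Stat2, a subunit of the type I interferon complex, measured 31.7, 47.4 and 53.4 in chow null, 44.9, 45.3 and 29.6 in Western null, 30.7, 35.3 and 38.9 in chow siAATF and 53.7, 46.8 and 41.4 in Western siAATF, in CPM. Irf9, its DNA-binding partner, measured 17.9, 25.4 and 25.6 in chow null, 25.2, 21.5 and 20.03 in Western null, 19.6, 20.3 and 19.9 in chow siAATF and 25.7, 29.05 and 24.2 in Western siAATF. The diets overlapped for both genes with the null vector and stood apart, Western above chow, with siAATF. The averaged diet difference was 0.14 ± 0.18 and 0.18 ± 0.16 on the log2 scale (SE), and neither passed in any comparison. Irf7, which amplifies type I interferon production, measured 22.7, 9.03 and 20.8 in chow null, 23.2, 33.7 and 21.5 in Western null, 14.8, 23.6 and 23.8 in chow siAATF and 28.3, 20.9 and 13.2 in Western siAATF. Its lowest library was chow null replicate 2, the shallowest of that group, and the diets overlapped under each vector. Irf1, which is induced by interferon gamma, measured 21.4, 30.5 and 21.4 in chow null, 20.7, 25.9 and 33.3 in Western null, 24.6, 23.6 and 28.4 in chow siAATF and 38.5, 46.5 and 19.4 in Western siAATF, with the 2 highest values in Western siAATF replicates 2 and 1. Nlrc5, the co-activator of class I promoters, measured 24.3, 21.5 and 49.8 in chow null, 20.2, 22.5 and 18.2 in Western null, 19.3, 23.6 and 29.3 in chow siAATF and 25.4, 25.4 and 28.6 in Western siAATF. Chow null replicate 3 stood above every other library for Nlrc5, and the Western null over chow null log2 fold change of -0.69 ± 0.30 did not pass (edgeR adjusted p = 0.139). Without that library the Nlrc5 value was -0.20. When the 4 libraries over 25% 18S RNA were left out, which leaves chow null replicate 3 as the sole library of its group, Nlrc5 was called lower with null, at -1.28 (edgeR adjusted p = 0.0112), and in the averaged contrast, at -0.62 (0.0382).

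Isg15 encodes the ubiquitin-like modifier that is conjugated to proteins after interferon exposure (GRCm39 chr4:156283881-156285275, minus strand). Its level was 3.999, 11.3 and 5.75 in chow null, 14.8, 21.1 and 13.7 in Western null, 5.29, 7.02 and 10.5 in chow siAATF and 17.2, 10.7 and 17.2 in Western siAATF, in CPM. Western libraries stood above chow libraries under each vector, and only chow null replicate 2 exceeded the lowest Western siAATF library. The mean was 16.5 ± 4.02 CPM (SD, n = 3) in Western null and 7.01 ± 3.81 in chow null, and the fitted difference was 2.59-fold, a log2 fold change of 1.38 ± 0.39 (SE) with an edgeR adjusted p of 0.0285. Under siAATF the log2 fold change was 0.97 ± 0.37 (edgeR adjusted p = 0.217), and averaged over vectors it was 1.17 ± 0.27 (0.00727). Parp9, an ADP-ribosyltransferase that works with the ubiquitin ligase Dtx3l, measured 35.8, 23.7 and 31.8 in chow null, 42.5, 45.3 and 36.01 in Western null, 25.9, 28.01 and 28.6 in chow siAATF and 45.3, 52.2 and 31.7 in Western siAATF. It separated without overlap under each vector, and rose by 0.53 ± 0.17 in the averaged contrast (edgeR adjusted p = 0.0377), a call made in 8 of 21 settings. Its partner Dtx3l, which overlaps it on the opposite strand, gave 0.18 ± 0.19, Parp14 gave 0.33 ± 0.21 and the ubiquitin ligase Trim25 gave -0.16 ± 0.14, none past the threshold. Usp18, which removes ISG15 and damps receptor signalling, measured 2.63, 10.2 and 2.61 in chow null, 14.3, 9.88 and 5.84 in Western null, 2.65, 2.83 and 2.72 in chow siAATF and 4.64, 3.18 and 7.48 in Western siAATF. The diets overlapped with null, where chow null replicate 2 was high, and stood apart with siAATF, and the averaged estimate of 1.00 ± 0.38 did not pass (edgeR adjusted p = 0.0771). A total of 62.9% of the Usp18 span is covered by a gene on the other strand, and reads on such overlaps may be missing from its count.

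The synthetase family genes Oas1a and Oasl2 rose in the null comparison. Oas1a, which makes the second messenger that activates RNase L (GRCm39 chr5:121034319-121045605, minus strand), measured 2.51, 1.13 and 2.44 in chow null, 2.96, 12.9 and 7.63 in Western null, 2.12, 1.54 and 2.72 in chow siAATF and 7.74, 7.94 and 3.08 in Western siAATF, in CPM. All 6 Western libraries lay above all 6 chow libraries, although the lowest Western values were close to the highest chow ones. The log2 fold change was 1.83 ± 0.51 (SE, edgeR adjusted p = 0.0269) with null, 1.65 ± 0.52 (0.127) with siAATF and 1.74 ± 0.36 (0.00399) averaged. Oasl2, a relative with a ubiquitin-like tail (GRCm39 chr5:115034995-115050306), measured 2.51, 2.82 and 3.48 in chow null, 15.3, 8.86 and 8.17 in Western null, 2.38, 3.69 and 6.27 in chow siAATF and 8.403, 4.54 and 4.401 in Western siAATF. Western null stood clear of chow null, while Western siAATF and chow siAATF overlapped. The corresponding values for Oasl2 were 1.81 ± 0.44 (0.0125), 0.51 ± 0.43 (0.625) and 1.16 ± 0.30 (0.0152) by the same test. Oas2, a further synthetase, measured 1.94, 0 and 1.13 in chow null, 2.47, 2.73 and 3.14 in Western null, 1.32, 1.29 and 1.88 in chow siAATF and 4.64, 2.95 and 5.72 in Western siAATF. It was low everywhere, with no count in chow null replicate 2, yet separated all Western from all chow libraries, and rose by 1.35 ± 0.40 averaged (edgeR adjusted p = 0.0289).

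Mx2, a dynamin-like antiviral GTPase, was the one member called lower (GRCm39 chr16:97337281-97362101). Its level was 7.77, 15.2 and 13.1 in chow null, 5.43, 2.04 and 3.68 in Western null, 6.61, 4.86 and 7.94 in chow siAATF and 8.403, 10.4 and 3.08 in Western siAATF, in CPM. All Western null libraries lay below all chow null libraries, and the siAATF groups overlapped. The log2 fold change was -1.69 ± 0.45 (SE) with null, a fitted level 0.310 times that of chow null (edgeR adjusted p = 0.0218), but 0.25 ± 0.43 with siAATF (0.837). Its neighbour Mx1 had no more than 26 counts in any library, was at or under the floor of 3 counts in chow null replicate 2, Western null replicate 1 and Western siAATF replicate 3, and gave 0.52 ± 0.56 in the averaged contrast. In many inbred mouse strains both Mx genes carry inactivating mutations.

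Zbp1, a sensor of Z-form nucleic acid that can trigger necroptosis, measured 4.46, 3.95 and 4.61 in chow null, 6.91, 6.13 and 5.57 in Western null, 1.32, 1.97 and 5.23 in chow siAATF and 11.1, 11.6 and 5.72 in Western siAATF, in CPM. Every Western library exceeded every chow library, with the highest values in Western siAATF replicates 1 and 2 and the lowest in chow siAATF replicates 1 and 2. The log2 fold change was 0.47 ± 0.44 (SE) with null, 1.79 ± 0.45 with siAATF (edgeR adjusted p = 0.0557) and 1.13 ± 0.31 averaged (0.021). Bst2, the membrane protein tetherin that holds budding virus at the cell surface, measured 66.96, 155 and 89.2 in chow null, 220.2, 235 and 186 in Western null, 75.4, 103 and 124 in chow siAATF and 134, 88.7 and 224 in Western siAATF. Western null stood above chow null, while Western siAATF replicates 1 and 2 fell among the chow values. The log2 fold change of Bst2 was 1.06 ± 0.34 with null (edgeR adjusted p = 0.0502), 0.56 ± 0.34 with siAATF (0.465) and 0.81 ± 0.24 averaged (0.0286). The RNA sensor Ifih1 (MDA5) and the RNA-binding Ifit2 and Ifit3 had averaged estimates of 0.47, 1.10 and 0.69, none of which passed. The kinase Eif2ak2 (PKR), which halts translation, gave 0.14 ± 0.42 and was spread from 0.565 to 23.2 CPM within chow null. Samhd1, which degrades deoxynucleotides, Cmpk2, a mitochondrial nucleotide kinase, and Rsad2 (viperin) gave 0.43, 0.02 and 0.07, also short of the threshold.

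Ifi44 showed the largest diet difference of all members under the siAATF vector (GRCm39 chr3:151436559-151455580, minus strand). This interferon-induced gene of the Ifi44 family measured 1.94, 3.39 and 2.35 in chow null, 7.899, 3.75 and 3.86 in Western null, 0.529, 1.11 and 1.05 in chow siAATF and 6.19, 7.04 and 3.08 in Western siAATF, in CPM. The chow siAATF libraries were the lowest of all 12, at 2 to 18 counts each, and Western libraries stood above chow libraries under each vector. The log2 fold change was 2.53 ± 0.51 (SE) with siAATF, a 5.76-fold difference (edgeR adjusted p = 0.0225), 1.04 ± 0.49 with null (0.173) and 1.78 ± 0.35 averaged (0.00284). Ifi35, a cytoplasmic partner of Nmi, measured 18.4, 20.3 and 20.3 in chow null, 24.2, 31.7 and 27.5 in Western null, 17.7, 15.6 and 18.4 in chow siAATF and 34.1, 31.3 and 32.6 in Western siAATF. All 6 Western libraries lay above all 6 chow libraries. The Western siAATF mean was 32.6 ± 1.37 CPM (SD, n = 3) and that of chow siAATF 17.3 ± 1.44. Its log2 fold change was 0.93 ± 0.22 with siAATF (edgeR adjusted p = 0.0413) and 0.51 ± 0.22 with null (0.136).

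Lgals3bp, a secreted glycoprotein that binds galectins, was higher on Western diet with the null vector (GRCm39 chr11:118283573-118292787, minus strand). Its CPM were 58.4, 84.1 and 63.5 in chow null, 170.3, 153 and 137 in Western null, 49.7, 84.1 and 92.6 in chow siAATF and 122, 81.2 and 145 in Western siAATF. The null groups stood apart, and Western siAATF replicate 2 lay within the range of chow siAATF. The log2 fold change was 1.17 ± 0.28 (SE, edgeR adjusted p = 0.0113) with null, 0.61 ± 0.27 (0.29) with siAATF and 0.89 ± 0.19 (0.0052) averaged. The apoptosis regulator Xaf1 gave 0.58 ± 0.31 in the averaged contrast and did not pass.

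**Figure D3:**
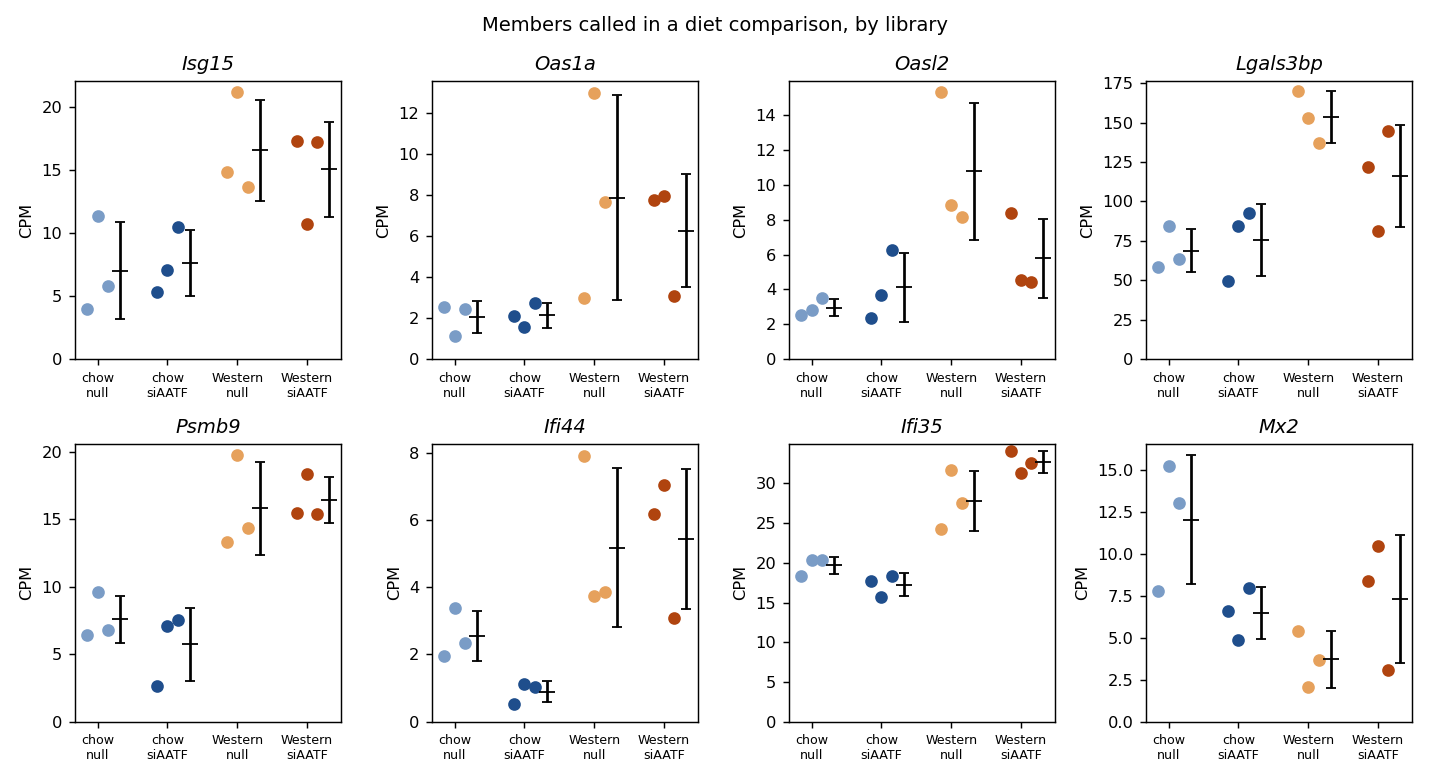
CPM (y axis, from 0) of the 8 members called in either diet comparison, 1 point per library by group (x axis), with the mean and SD of each group of 3 beside the points. Western libraries lie above chow libraries without overlap under each vector for Isg15, Oas1a, Psmb9, Ifi44 and Ifi35, and Mx2 is lowest in Western null.

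The guanylate-binding proteins and immunity-related GTPases, which attack the vacuoles of intracellular microbes, gave calls for Gbp2 and Gbp3, both in the averaged contrast. Under other settings Gbp3 was also called for diet with siAATF (5 of 22 settings), Gbp2 for diet with null (2 of 22) and Irgm2 in the averaged contrast (1 of 21). Gbp2 measured 3.54, 6.21 and 3.48 in chow null, 7.41, 6.47 and 11.9 in Western null, 5.29, 2.59 and 3.76 in chow siAATF and 8.62, 8.62 and 3.96 in Western siAATF, in CPM, and Gbp3 measured 5.03, 2.82 and 5.49 in chow null, 3.95, 8.86 and 8.17 in Western null, 3.97, 2.401 and 4.39 in chow siAATF and 12.2, 9.99 and 7.92 in Western siAATF. Gbp2 separated the diets with null and Gbp3 with siAATF, and in the averaged contrast they rose by 1.04 ± 0.30 (edgeR adjusted p = 0.0245) and 1.08 ± 0.28 (0.0135). Gbp7 gave 0.41 ± 0.26. Igtp, Irgm1 and Irgm2 gave averaged log2 fold changes of 0.24 ± 0.16, -0.10 ± 0.23 and -0.47 ± 0.23, with no call. For Igtp, Western siAATF lay wholly above chow siAATF, at 0.38 ± 0.23 (edgeR adjusted p = 0.465). For Irgm1, Western null lay wholly below chow null, at -0.38 ± 0.33 (edgeR adjusted p = 0.472). Igtp and Irgm2, whose promoter stretches differ at 2 of 60 bases, were 0.09 ± 0.23 and -0.75 ± 0.33 on Western null over chow null. All Western null values of Irgm2 lay below those of chow null without passing the test (edgeR adjusted p = 0.149), and the difference between these genes was not tested. The Oas, Ifit, Gbp, immunity-related GTPase and class I families hold near-identical copies, whose levels are uncertain where a read matches more than 1 of them.

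The immunoproteasome replaces the 3 catalytic subunits of the constitutive proteasome and yields peptides suited to class I molecules. Psmb9, also called LMP2 (GRCm39 chr17:34400961-34406304, minus strand), measured 6.399, 9.599 and 6.79 in chow null, 13.3, 19.8 and 14.4 in Western null, 2.65, 7.08 and 7.52 in chow siAATF and 15.5, 18.4 and 15.4 in Western siAATF, in CPM. All 6 Western libraries exceeded all 6 chow libraries, and chow siAATF replicate 1 was lowest. Its log2 fold change was 1.11 ± 0.35 (SE, edgeR adjusted p = 0.0426) with null, 1.47 ± 0.34 (0.0406) with siAATF and 1.29 ± 0.24 (0.00197) averaged. Psmb8 measured 13.5, 27.1 and 15.3 in chow null, 20.7, 31.01 and 28.02 in Western null, 12.4, 16.2 and 22.99 in chow siAATF and 41.1, 37.7 and 24.2 in Western siAATF. It overlapped between the null groups, where chow null replicate 2 was high, and separated between the siAATF groups. The averaged log2 fold change of Psmb8 was 0.80 ± 0.22 (edgeR adjusted p = 0.0217). Psmb10 measured 17.03, 38.4 and 24.2 in chow null, 36.04, 50.4 and 37.2 in Western null, 33.3, 30.8 and 41.4 in chow siAATF and 49.5, 29.5 and 33.01 in Western siAATF and gave 0.39 ± 0.21, with overlapping groups.

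Counts of each inducible subunit were divided by those of the constitutive subunit it replaces, within each library. The ratio of Psmb9 to Psmb6 was 0.0927 ± 0.0206 (SD, n = 3) in chow null, 0.135 ± 0.0270 in Western null, 0.0577 ± 0.0272 in chow siAATF and 0.135 ± 0.0365 in Western siAATF. Among chow libraries only chow null replicate 2, at 0.1156, exceeded the lowest Western value of 0.114. For Psmb8 to Psmb5 the ratios were 0.654 ± 0.283, 0.573 ± 0.145, 0.392 ± 0.0205 and 0.784 ± 0.397 in the same order, and for Psmb10 to Psmb7 they were 0.399 ± 0.272, 0.545 ± 0.0857, 0.446 ± 0.104 and 0.548 ± 0.155. The diets overlapped for both of these pairs. These are ratios of counts, not of protein or of assembled proteasomes. Of the 14 constitutive subunits, none was called in either diet comparison (6 differences past an unadjusted p of 0.05, 3 in each), and Psma7 (0.58 ± 0.17) and Psmb6 (0.42 ± 0.14) were called higher in the averaged one.

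Tap1 and Tap2 form the transporter that carries peptides into the endoplasmic reticulum, and Tapbp (tapasin) joins it to empty class I molecules. Tap1 measured 12.3, 27.1 and 24.99 in chow null, 44.9, 40.2 and 30.4 in Western null, 16.1, 24.4 and 30.1 in chow siAATF and 25.9, 28.1 and 38.3 in Western siAATF, in CPM. With null, Western libraries lay above chow libraries for Tap1 and for Tap2, with log2 fold changes of 0.86 ± 0.32 and 0.74 ± 0.27 that did not pass (edgeR adjusted p = 0.0824 and 0.0756). With siAATF the diets overlapped, at 0.37 ± 0.31 and 0.31 ± 0.26. Tapbp gave 0.44 ± 0.30 and -0.31 ± 0.30.

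The classical heavy chain genes H2-K1 and H2-D1 did not pass in any comparison. H2-K1 measured 503, 724 and 468 in chow null, 589, 687 and 589 in Western null, 561, 622 and 773 in chow siAATF and 504, 416 and 748 in Western siAATF, in CPM, with overlap between all groups. Its diet difference was 0.14 ± 0.27 with null and -0.23 ± 0.27 with siAATF, with a 95% interval of -0.44 to 0.35 for the average. H2-D1 measured 413, 562 and 372 in chow null, 638, 671 and 616 in Western null, 376, 429 and 581 in chow siAATF and 548, 472 and 556 in Western siAATF. All Western null libraries exceeded all chow null libraries for H2-D1, at 0.52 ± 0.24 (edgeR adjusted p = 0.169), whereas the siAATF groups overlapped. For H2-K1 the 95% interval was -0.42 to 0.70 with null and -0.79 to 0.33 with siAATF.

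**Figure D4:**
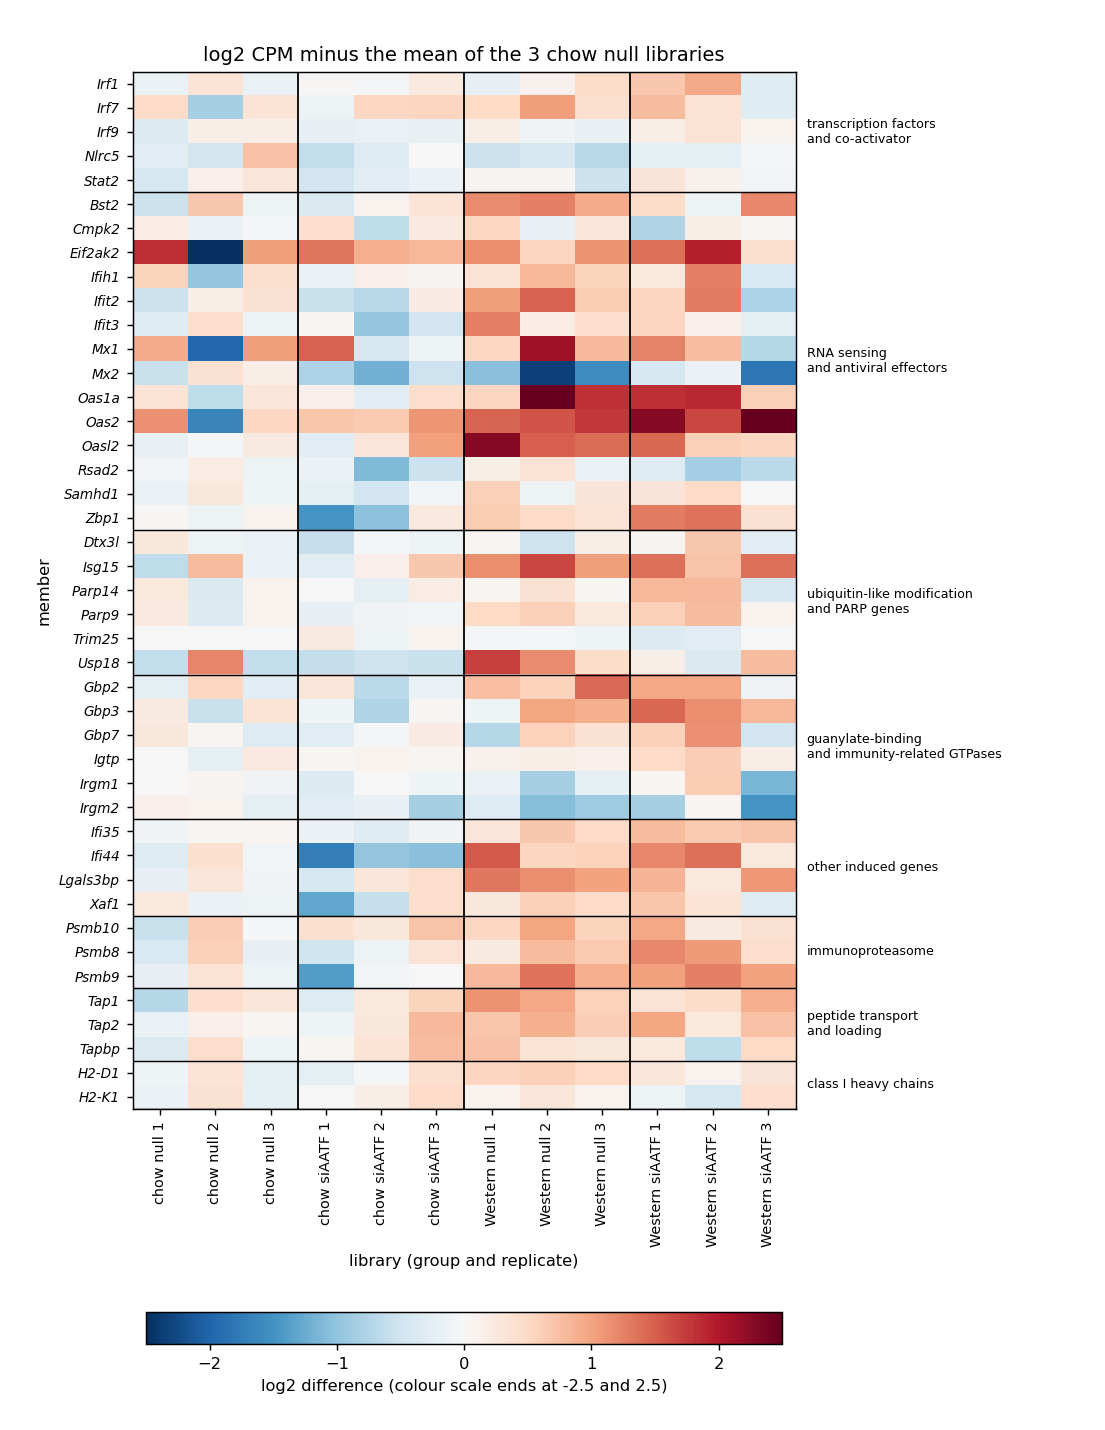
Difference of each member's log2 CPM from the mean of the 3 chow null libraries, 1 row per member in order of role and 1 column per library (vertical lines part the groups). Red stands for higher and blue for lower: Oas1a, Oas2, Oasl2, Isg15 and Psmb9 are red in all 6 Western columns, and Mx2 is blue in the Western null columns. Each of these red genes is also red in some chow columns. Oas2 is red in chow null 1 and 3 and in every chow siAATF column, since its chow null mean takes in the 0 count of replicate 2.

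Single libraries weighed on these calls. With 1 library left out, the number of all genes called also moved, from 658 to 2250 with null and 34 to 737 with siAATF. It ran from 1457 to 2546 in the averaged contrast. In the null comparison the number of members called was 2, 9 or 1 when chow null replicate 1, 2 or 3 was left out, and 3, 2 or 3 without Western null replicate 1, 2 or 3. Lgals3bp was called in 21 of 22 settings, the main one included, Oasl2 in 19, Isg15 and Mx2 in 18, Oas1a in 15 and Psmb9 in 12. In the siAATF comparison the number was 0, 0 or 1 without chow siAATF replicate 1, 2 or 3 and 0, 0 or 7 without Western siAATF replicate 1, 2 or 3, and it was 1 without chow null replicate 3 or any Western null replicate. Ifi44 was called there in 14 of 22 settings, Psmb9 in 10 and Ifi35 in 9. In the averaged contrast Ifi35, Ifi44, Isg15, Lgals3bp and Psmb9 were called in all 21 settings run. Gbp3 was called in 20, Oas1a and Oasl2 in 19, Zbp1 in 17, Oas2 in 15, Bst2, Gbp2 and Psmb8 in 14 and Parp9 in 8. The highest adjusted p of Parp9, 0.144 by edgeR, was that without the libraries over 25% 18S RNA. The count there was 9 without chow null replicate 3 or chow siAATF replicate 1 and 8 without chow siAATF replicate 2 or Western siAATF replicate 1.

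Cell type markers moved with diet beside the members. Hepatocyte markers summed to 61366.7 to 92370.4 CPM in the chow libraries and 40669.5 to 53948.4 in the Western libraries without overlap, with 2 of 7 called lower with null and 4 of 7 in the averaged contrast. Macrophage markers summed to 208 to 340.2 CPM in chow null and 401 to 751 in Western null, with 4 of 9 tested markers called higher and 1 lower. Pan-leukocyte markers summed to 139 to 189 and 214 to 250.1 CPM, with 5 of 8 called higher. Markers of lipid-associated macrophages were called higher in 7 of 8 with null and in 3 of 8 with siAATF. With siAATF, macrophage markers summed to 160.5 to 332 CPM on chow and 335 to 846 on Western diet, and edgeR called none of the 9 (5 higher at an unadjusted p under 0.05). Markers of stellate cells were called higher in 4 of 6, of endothelial cells in 3 of 6 and of cholangiocytes in 2 of 4 with null. With siAATF, edgeR called none of these for diet (2, 3 and 0 higher at an unadjusted p under 0.05). None of the 8 pan-leukocyte markers was called there either (6 higher at an unadjusted p under 0.05). The null comparison called 6.44% of all genes higher and the siAATF comparison 0.763%. With siAATF, estimates were above 0 for 9 of 9 macrophage and 7 of 8 pan-leukocyte markers. The same held for 5 of 6 stellate, 6 of 6 endothelial and 2 of 4 cholangiocyte markers. Neutrophil markers were called higher in 2 of 3 with siAATF, where the median log2 fold change of the 3 was 6.47, and in none with null. Ly6g and Retnlg did not pass the low-count filter. The neutrophil sum was 81.6, 118 and 2.64 CPM in Western siAATF replicates 1, 2 and 3, against 0.794 to 5.85 in chow siAATF. Replicate 3 thus lay within the chow siAATF range. Markers of T and NK cells summed to 5.92 to 6.86 CPM in chow null and 6.197 to 11.6 in Western null, and 1 of 14 passed the filter. Trac, Trbc2 and Gzma lie inside other genes and are listed at 0. The part of these cells in the members' differences was not tested.

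No member was called between Western siAATF and Western null, whose null libraries also serve the diet comparison, in a comparison that called 0.871% of all genes. At an unadjusted p under 0.05 there were 2 of 43 members against 10.7% of all genes, and neither DESeq2 nor limma-voom called any. The median log2 fold change was -0.04, against 0.06 for all genes, with 21 positive and 22 negative values. Western siAATF lay wholly above Western null in 2 of 43 members and wholly below in 2 of 43, against 7.69% and 7.87% of all genes. The lowest p-values belonged to Mx2, at 1.06 ± 0.46 (SE, edgeR adjusted p = 0.411), and Rsad2, at -0.71 ± 0.32 (edgeR adjusted p = 0.421). Rsad2, which encodes the antiviral enzyme viperin, measured 12.7, 15.2 and 12.1 in chow null, 14.8, 17.04 and 11.9 in Western null, 11.9, 5.97 and 8.99 in chow siAATF and 10.6, 7.26 and 8.36 in Western siAATF, in CPM. Every siAATF library lay below every null library of its diet for Rsad2, under chow as well, without passing either test. Oasl2, Usp18 and Bst2 followed, with estimates of -0.83 ± 0.42, -0.96 ± 0.52 and -0.53 ± 0.34 and overlapping groups. The 95% interval lay within -1 and 1 on the log2 scale for 20 of the 43 members, so a change of that size or more lay outside the interval for those alone.

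Cell type markers also differed between these groups. Of 8 markers of lipid-associated macrophages, 5 were called lower in Western siAATF, and their sum was 58.5 to 91.7 CPM against 259 to 377 in Western null. Of the 9 Kupffer cell and macrophage markers tested, edgeR called none (3 at an unadjusted p under 0.05), 4 were positive and 5 negative, and their sums overlapped, at 335 to 846 and 401 to 751 CPM. Neutrophil markers summed to 81.6, 118 and 2.64 CPM in Western siAATF replicates 1, 2 and 3, against 5.39 to 12.3 in Western null. Western siAATF replicate 3 also had the lowest pan-leukocyte sum of its group, 99.9 CPM against 228 and 257. It was the lowest of its group in 27 of 43 members (62.8%), against 41.5% of all genes. In chow siAATF, replicate 3 was the highest in 28 members (65.1%), against 29.2% of all genes. The link between these libraries' cell markers and their member levels was not tested.

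Between chow siAATF and chow null, no member was called, and of all genes 0 were. At an unadjusted p under 0.05 there was 1 of 43 members, against 2.39% of all genes. DESeq2 called 1 of all genes and no member, and limma-voom called no member either. The median log2 fold change was -0.14, against -0.03 for all genes, with 14 positive and 29 negative values. Of 43 members, 3 lay wholly below chow null and 0 wholly above, against 4.32% and 4.25% of all genes. Ifi44 had the lowest p, with -1.31 ± 0.53 (SE, edgeR adjusted p = 1). Mx2 gave -0.88 ± 0.42, Rsad2 -0.59 ± 0.31, Psmb10 0.45 ± 0.30 and Nlrc5 -0.43 ± 0.29, none of which passed. Without chow null replicate 3 the Nlrc5 value was 0.08. The interval lay within -1 and 1 for 22 of 43 members.

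**Figure D5:**
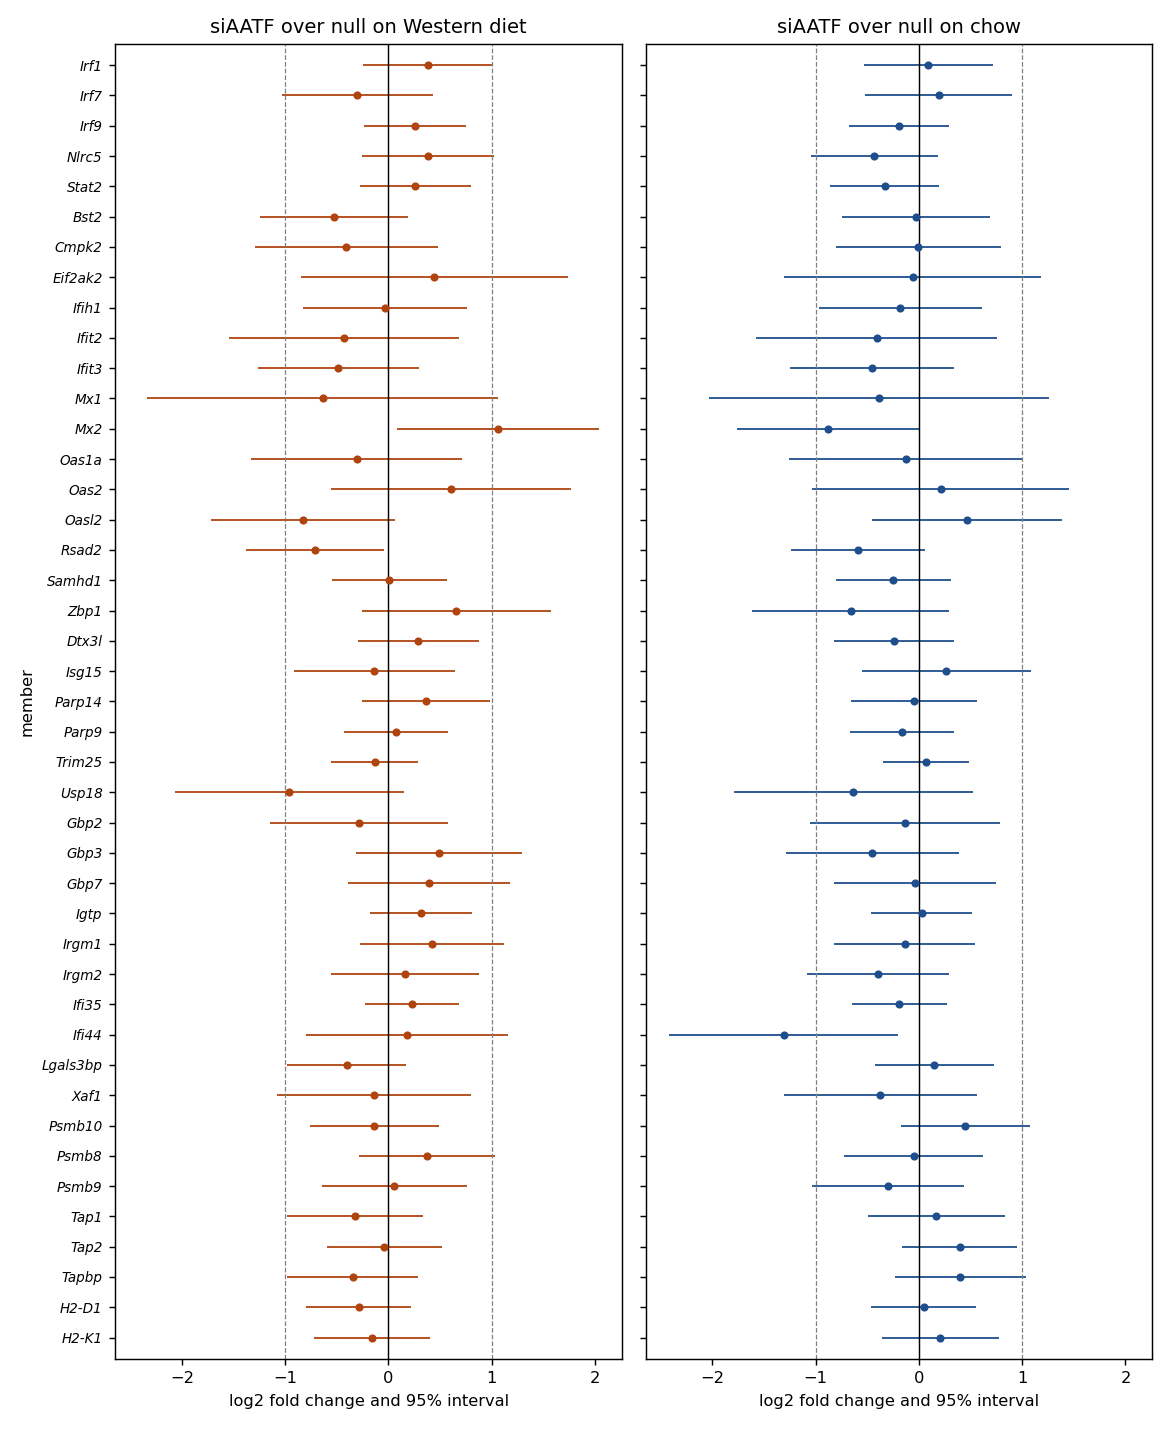
Log2 fold change of siAATF over null (points) and 95% intervals (bars) for each member, on Western diet (left) and on chow (right), with dashed lines at -1 and 1. On Western diet 21 points lie above 0 and 22 below, and on chow 14 lie above and 29 below. The bars leave 0 out for Mx2 and Rsad2 on Western diet and for Ifi44 on chow.

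The diet difference itself was compared between the vectors. No member passed the test of this interaction, which called 0.193% of all genes. At an unadjusted p under 0.05 there were 3 of 43 members against 9.16% of all genes. Mx2 had the lowest p, with an interaction of 1.94 ± 0.62 (SE, edgeR adjusted p = 0.323). Its diet difference was -1.69 with null and 0.25 with siAATF. Without Western siAATF replicate 3 the adjusted p of Mx2 was 0.0419, the lowest of its 20 alternatives, which ran up to 0.666. Oasl2, Ifi44, Zbp1 and Nlrc5 followed, with interactions of -1.30 ± 0.61, 1.49 ± 0.70, 1.32 ± 0.63 and 0.82 ± 0.42. The calls made under one vector and not under the other are therefore not shown to differ.

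Upstream of the members, the interferon genes themselves were almost without counts. Of 10 ligand genes examined, 9 were listed at 0 in all 12 libraries, and Ifng had 2 counts in total. Of the 9, Ifnk lies inside another gene, so its 0 says nothing of its level. For the other 8 the floor of 3 counts allows 0.185 to 1.69 CPM, so low expression was not detectable at this depth. Of 9 receptor and kinase genes tested, none was called in the comparisons of 3 against 3. Genes called higher in the averaged diet contrast included Il10rb, a subunit shared by interferon lambda and interleukin receptors, at 0.85 ± 0.23 (SE, edgeR adjusted p = 0.0176) and Ifngr1, a subunit of the interferon gamma receptor, at 0.55 ± 0.16 (0.0266). No nucleic acid sensor or adaptor of 12 tested was called in any comparison, and the lowest adjusted p was that of Tlr7 in the averaged contrast, at 1.32 ± 0.50 (0.075 by the same edgeR test). Of 8 negative regulators tested, Socs3 was higher on Western diet with siAATF, at 2.03 ± 0.47 (edgeR adjusted p = 0.0406). Socs3 measured 30.1, 13.8 and 4.84 CPM in Western siAATF and 5.03, 3.82 and 3.55 in chow siAATF, so that replicate 3 of the Western group lay within the chow range. Ptpn6, a phosphatase that damps cytokine signalling, was called higher in the averaged contrast, at 0.73 ± 0.21 (0.0247).

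Other interferon-induced genes, 58 tested of 75 listed, were called higher in 3 and lower in 2 with the null vector, 8.62% in either direction against 13.2% of all genes. Slfn2, a Schlafen family gene of immune cells, rose by 1.64 ± 0.50 (SE, edgeR adjusted p = 0.0385), Parp12 by 0.72 ± 0.23 (0.0441) and Plac8 by 1.22 ± 0.39 (0.0476). Rtp4, at -1.11 ± 0.29 (0.0201), and Helz2, at -0.80 ± 0.21 (0.0193), fell by the same test. Helz2, a helicase that also binds the nuclear receptor PPARA, measured 183, 191 and 193 in chow null, 101, 124 and 101 in Western null, 211, 219 and 223 in chow siAATF and 154, 112 and 151 in Western siAATF, in CPM. Every Western library lay below every chow library for Helz2. With siAATF none of the 58 was called, against 1.48% of all genes. By edgeR at an unadjusted p under 0.05, 15 were higher there and 2 lower, against 9.1% and 6.08% of all genes. Their estimates with siAATF were positive for 45 and negative for 13. In the averaged contrast 8 of the 58 were higher and 4 lower, against 9.61% and 8.59% of all genes. The list's median log2 fold change was 0.23 with null and 0.48 with siAATF, against -0.03 and 0.04 for all genes. The chemokine genes Cxcl10, Cxcl11 and Ccl5 are listed at 0, each one inside another gene.

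Among other class I genes, H2-Q1 and H2-Q2 were called. H2-Q1 measured 1.03, 0.565 and 1.39 in chow null, 34.6, 43.96 and 38.6 in Western null, 3.97, 0.8003 and 0.627 in chow siAATF and 10.4, 13.2 and 3.08 in Western siAATF, in CPM. Western null stood far above the rest, Western siAATF was intermediate, and chow siAATF replicate 1 exceeded the lowest Western siAATF library. The log2 fold change was 5.08 ± 0.58 (SE, edgeR adjusted p = 6.45e-05) for diet with null, -2.08 ± 0.47 (0.0485) for siAATF on Western diet and 2.62 ± 0.57 (0.0312) for diet with siAATF. The interaction, at -2.46 ± 0.82, did not pass (0.336). H2-Q2 measured 0.114, 0 and 0 in chow null, 3.46, 5.45 and 1.796 in Western null, 0, 0.246 and 0.836 in chow siAATF and 2.65, 2.496 and 1.32 in Western siAATF and was called higher with null (edgeR adjusted p = 0.00261), with a single count over the 3 chow null libraries, so no fold is given. Of 17 class I genes tested, edgeR called no other in any comparison of 3 against 3. The light chain B2m and the heavy chains H2-T23 and H2-T24 lie inside other genes and are listed at 0.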

How the data were processed

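Liver RNA was sequenced in 12 libraries, 3 in each of 4 groups taken from the labels. The authors deposited whole-number read counts for 50499 genes. Per the submitters' processing notes, STAR 2.7.11, featureCounts 2.0.1, DESeq2 1.42.0 and R 4.3.2 were used with build GRCm39. The strand setting is not given in the sources used here. In the deposited table a gene's length equals its genomic span, so introns were counted with exons, and genes lying inside another gene are listed at 0.

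Counts were analysed with edgeR 4.0.16 in R 4.3.3 (filterByExpr by group, TMM scaling, robust quasi-likelihood fit of all 12 libraries with 1 mean per group, 8 residual degrees of freedom). P-values were adjusted by the Benjamini-Hochberg method over 11934 genes at a threshold of 0.05. CPM are counts over the TMM-scaled library size, standard errors come from the log2 fold change and its F statistic, and intervals are 95%. The same code was tested on simulated data with known changes. Alternatives were DESeq2 1.42.0, limma-voom (limma 3.58.1), other scaling and filters, a replicate block, each library left out in turn, and the omission of libraries with over 25% of counts on 18S RNA. Values in every library are given for members past the threshold, for the 5 members with the lowest p in comparisons with fewer than 5 calls, and for Stat2, Irf7, Irf9, Irf1, Nlrc5, Isg15, Psmb8, Tap1, H2-K1 and H2-D1. From each pathway list up to 4 genes were named by adjusted p, and Plac8, outside that rule, was chosen after its values were seen. Members and lists were chosen with earlier results of these data known, and the diet contrast averaged over vectors was added after the data had been seen. Promoter windows are RefSeq sequence in GRCm38.p6 and were not joined to GRCm39 coordinates. Figures were drawn with matplotlib 3.10.9 in Python 3.11.15. A single result of a pathway list is not reported here.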

Additional observations from a re-analysis of the deposited data

How the results depend on the processing

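With the null vector, leaving out 1 library moved the number of members called for diet between 1 and 9 and that of all genes between 658 and 2250. Without the 4 libraries over 25% 18S RNA (chow null replicates 1 and 2, chow siAATF replicate 1, Western siAATF replicate 2) 1031 genes were called. That setting leaves chow null replicate 3 alone in its group, which is assumed to vary like the other groups. With siAATF, the number of members called was 5 by DESeq2, 5 by limma-voom and 5 without the low-count filter, but 0 with the replicate block, 0 without the libraries over 25% 18S and 0 when only the compared groups were fitted, with 0 to 7 over the fits that left out 1 library. All genes called there were 513 by DESeq2, 836 without the filter, 71 with the block, 103 without the 18S-rich libraries, 17 with the compared groups only, and 34 to 737 with 1 library left out. For siAATF over null on Western diet, all genes called were 285 by DESeq2, 572 without the filter, 64 with the block, 53 with the compared groups only and 26 to 413 with 1 library left out. On chow they were 1 by DESeq2 and 33 without the filter. For the interaction they were 124 by DESeq2, 9 by limma-voom, 331 without the filter, 14 with the block, 3 without the 18S-rich libraries and 2 to 295 with 1 library left out, and 0 to 1 members were called in the latter fits. The members' median interaction of log2 fold changes was -0.13 without the 18S-rich libraries and 0.022 to 0.33 with 1 library left out. The averaged diet contrast called 8 to 16 members and 1457 to 2546 of all genes with 1 library left out. Among the members checked, Psmb8 in chow siAATF over chow null (0.37) reversed sign by more than 1 SE of its main estimate. So did Irf1 (-0.18) and Psmb8 (-0.055) in the interaction and H2-K1 in the averaged contrast (0.14). Each was without the 18S-rich libraries and so rests on that 1 chow null library. Nlrc5 on chow also reversed by more than 1 SE, ranging from -0.63 to 0.076 with 1 library left out. Smaller sign changes occurred with 1 library left out. Among them were Tap1 (-0.13) and Isg15 (-0.04) in chow siAATF over chow null and Stat2 (0.026) for diet with null. The cause was not tested. Same-numbered libraries did not deviate together: over 18 pairs the correlation of deviations ran from -0.378 to 0.259, and 1 exceeded 0.1, so the block is no more than an alternative. The shallowest libraries set the floor of 3 counts at up to 1.69 CPM, which limits what can be said of low members such as Oas2, Mx1 and Ifi44.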
